A study of Canis lupus familiaris with 8 samples.

Results

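EDA, EDAR, VDR and RXRG are 4 genes of hair follicle and epidermal signalling that a custom NanoString panel counted in canine skin. They were taken by name from the panel table, and they are 4 of the 156 panel genes that remain once the 4 housekeeping genes, B2M, RPL13A, CCZ1 and HPRT, are set aside. RNA came from fixed, paraffin-embedded biopsies of lesional skin from 2 dogs with Vogt-Koyanagi-Harada syndrome (VKH), an autoimmune disease against pigment cells of skin, eye and other organs, and from 1 dog with vitiligo, in which the attack is mostly on the skin, and of leg margins from 5 healthy dogs. Each biopsy was a separate dog.

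By their labels the VKH dogs were a Bernese Mountain Dog and a Husky, both male, aged 2.5 and 2 years, and the vitiligo dog was a neutered male Labrador Cross aged 1 year. The study gives other ages than the labels for the Husky and the vitiligo dog. The healthy dogs were 2 neutered males and 3 spayed females of 5 different breeds or crosses, aged 6 to 12 years, and their skin came from amputated legs. The VKH biopsies were taken for diagnosis in dogs with depigmented skin of the nose and face, and the Bernese Mountain Dog was at some time given steroids, with the order of biopsy and steroid not stated in the sources used here. Disease, body site, age and the way of sampling therefore differ together between cases and healthy dogs and cannot be told apart in any comparison.

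Ectodysplasin, the product of EDA, is a signalling protein of the tumour necrosis factor family. It binds the receptor EDAR, which passes the signal through the adaptor EDARADD to the transcription factor NF-kB, and the pair is needed to place hair follicles, teeth and sweat glands in the embryo. Inherited loss of EDA in dogs, mice and humans gives sparse hair, missing teeth and few sweat glands. VDR is the nuclear receptor for the active form of vitamin D, which acts in keratinocyte differentiation, and mice and humans without it lose their hair after the first coat. VDR binds DNA together with a retinoid X receptor, and RXRG encodes the gamma form of that partner, which also pairs with retinoic acid, thyroid hormone and peroxisome proliferator receptors.

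Panel totals were 742667 and 616576 counts for VKH, 421915 for vitiligo and between 209889 and 675018 for healthy skin. Counts were scaled to the geometric mean of the 4 housekeeping genes in each dog, and such a value is called a scaled count here. Background was set for each dog at the mean of its 8 negative controls plus 2 SD, which came to 16.7 and 16.6 counts for VKH, 22.2 for vitiligo and between 22.8 and 27.8 for healthy skin. Fold changes are log2 values with their standard errors from edgeR's quasi-likelihood test, with Benjamini-Hochberg adjustment across the 156 genes and a threshold of 0.05. In whole biopsies, fewer cells of a type and less RNA per cell cannot be told apart.

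EDA, the ligand, was well measured in all 8 dogs. Its raw counts were 82 and 67 in the VKH dogs, 77 in the dog with vitiligo and 125, 80, 188, 99 and 113 in healthy replicates 1 to 5, which is 2.98 to 8.23 times the background of the same dog. After scaling, EDA stood at 58.4 and 88.7 in the VKH dogs and 93.4 in the vitiligo dog, against 187, 103, 107, 119 and 116 in the healthy dogs. All 3 cases lay below all 5 healthy dogs, and the gap between the highest case and the lowest healthy dog was small, 93.4 against 102.8. The same full separation in that direction was seen in 10.9% of the 156 genes (17 genes), and EDA was the only member among them. Its exact permutation p over the dogs was 0.0357, two-sided, the smallest that 3 dogs against 5 can give.

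On average EDA had 73.6 ± 21.4 scaled counts in the VKH dogs (SD, n = 2) and 126 ± 34.4 in the healthy dogs (SD, n = 5). The log2 fold change was −0.78 ± 0.38 (SE) in VKH, with a 95% interval of −1.62 to 0.06, and did not pass the edgeR test (adjusted p = 0.109). It was −0.50 without VKH replicate 1 and −1.11 without VKH replicate 2. Against the same healthy dogs the vitiligo dog was at −0.43 ± 0.49 (edgeR adjusted p = 0.566) and the 3 cases together at −0.66 ± 0.32 (edgeR adjusted p = 0.112).

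**Figure D1:**
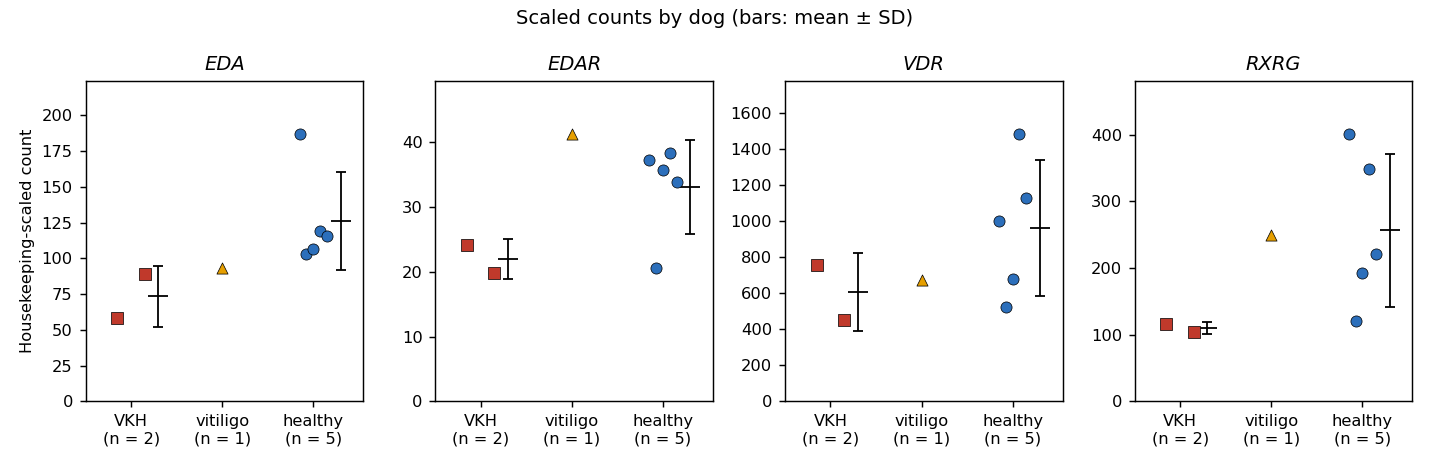
Scaled counts of EDA, EDAR, VDR and RXRG, each on its own linear axis from 0, with VKH, vitiligo and healthy dogs from left to right, 1 point a dog, and bars for the mean ± SD of VKH and healthy dogs. The 3 cases lie below the 5 healthy dogs for EDA, both VKH dogs but not the vitiligo dog do so for RXRG, and EDAR and VDR overlap.

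EDAR, the receptor of ectodysplasin, was close to the limit of detection. The raw counts were 34 and 15 in the VKH dogs, 34 in the dog with vitiligo and 25, 16, 63, 32 and 33 in the healthy dogs. EDAR exceeded background in 5 of 8 dogs, namely 1 of 2 VKH dogs, the vitiligo dog and 3 of 5 healthy dogs. The dogs below it were VKH replicate 2, with 15 counts against a background of 16.6, healthy replicate 1, with 25 against 27.8, and healthy replicate 2, with 16 against 26.8. A count of 15 has an exact Poisson 95% interval of 8.40 to 24.7, and the highest, 63 in healthy replicate 3, one of 48.4 to 80.6. These intervals cover counting error only.

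Scaled counts of EDAR were 24.2 and 19.9 in the VKH dogs, 41.2 in the dog with vitiligo and 37.3, 20.6, 35.8, 38.4 and 33.9 in the healthy dogs. The vitiligo dog was above every healthy dog, 1 VKH dog was below all of them and the other was within their range. EDAR averaged 22.0 ± 3.08 in VKH (SD, n = 2) and 33.2 ± 7.26 in healthy skin (SD, n = 5). The log2 fold change was −0.58 ± 0.39 in VKH, which did not pass (edgeR adjusted p = 0.237), and 0.31 ± 0.48 in vitiligo. The 1 vitiligo dog gives no spread of its own, and the fit assumes that it varies as the others do.

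**Figure D2:**
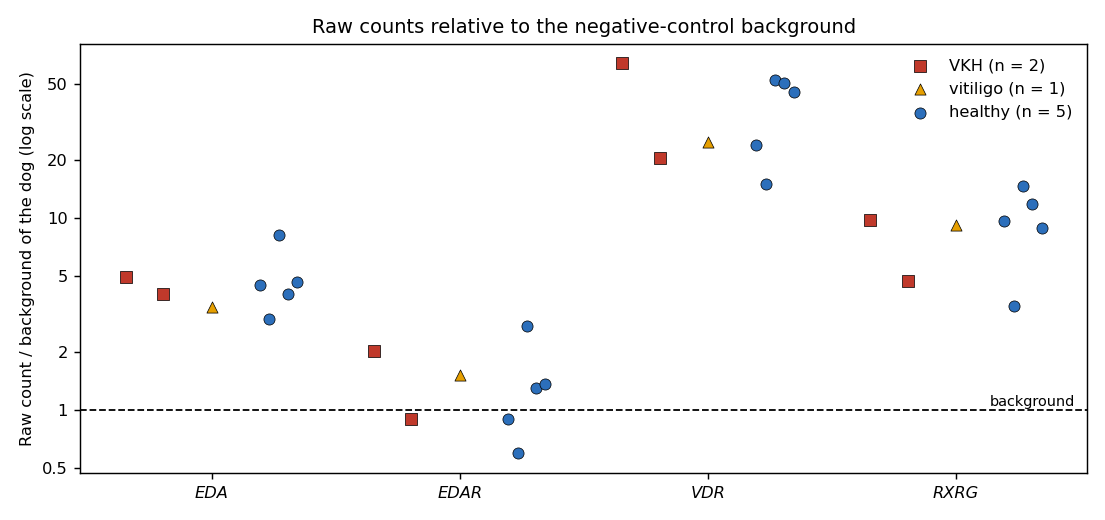
Raw count of each member divided by the background of the same dog (log axis), for VKH, vitiligo and healthy dogs from left to right, with a line at 1. EDAR falls on both sides of the line, at 0.596 to 2.76, and VDR lies farthest above it, at 15.2 to 64.0.

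VDR, the vitamin D receptor, had the highest counts of the 4 genes. They were 1066 and 343 in the VKH dogs, 556 in the dog with vitiligo and 670, 407, 1198, 1235 and 1103 in the healthy dogs. As probes differ in efficiency, these levels do not rank the genes by their RNA. Scaled counts were 759 and 454 in the VKH dogs, 674 in the dog with vitiligo and 1001, 523, 680, 1483 and 1131 in the healthy dogs. Only VKH replicate 2 lay below all healthy dogs, and the other VKH dog and the vitiligo dog fell inside their range.

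The healthy dogs themselves differed 2.83-fold in VDR from lowest to highest. The log2 fold change was −0.67 ± 0.46 in VKH (edgeR adjusted p = 0.247), with a 95% interval of −1.69 to 0.36, and −0.51 ± 0.61 in vitiligo (edgeR adjusted p = 0.58). The VKH value was −1.08 without VKH replicate 1 and −0.34 without VKH replicate 2. Over the 3 cases it was −0.61 ± 0.38 (edgeR adjusted p = 0.188, exact permutation p = 0.179, two-sided). None of these passed the threshold.

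RXRG, the retinoid partner receptor, had the largest log2 fold change of the 4 members in VKH and almost none in vitiligo. Raw counts were 163 and 78 in the VKH dogs, 206 in the dog with vitiligo and 268, 94, 338, 290 and 215 in the healthy dogs. Scaled, they were 116 and 103 in the VKH dogs, 249.9 in the dog with vitiligo and 400.2, 121, 192, 348 and 221 in the healthy dogs. Both VKH dogs lay below all 5 healthy dogs, at most 116.1 against at least 120.8, while the vitiligo dog stood above 3 of the 5. Healthy replicate 2 was nearly level with the VKH dogs, and the healthy dogs spread over 3.31-fold.

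RXRG averaged 109.7 ± 9.05 scaled counts in VKH (SD, n = 2) and 256 ± 115 in healthy skin (SD, n = 5). Its log2 fold change in VKH was −1.22 ± 0.48, with a 95% interval of −2.30 to −0.14, and the unadjusted edgeR p of 0.0303 became 0.0661 after Benjamini-Hochberg adjustment over 156 genes. Without healthy replicate 2 it was −1.40 and passed (edgeR adjusted p = 0.0249). With all 8 dogs it also passed with DESeq2 (adjusted p = 0.0395) and under 6 of 11 scalings, so the call turns on the setting as well as on that dog. For VKH against all 5 healthy dogs the exact permutation p was 0.0952, two-sided, the smallest that 2 dogs against 5 allow. Over the 3 cases the exact permutation p was 0.25, two-sided. In the vitiligo dog the value was −0.04 ± 0.59 (edgeR adjusted p = 0.96), with a 95% interval of −1.35 to 1.28 that holds the VKH value too.

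The direct contrast of the diseases gave no call for any member. VKH minus vitiligo was −1.19 ± 0.64 for RXRG (edgeR adjusted p = 0.738), −0.89 ± 0.54 for EDAR (edgeR adjusted p = 0.858), −0.35 ± 0.53 for EDA (edgeR adjusted p = 0.949) and −0.15 ± 0.65 for VDR (edgeR adjusted p = 0.984). With 1 vitiligo dog, the fit assumes that it varies as the others do, and the widest of these intervals, that of VDR, ran from −1.60 to 1.29. That RXRG and EDAR are lower in VKH than in vitiligo is thus not shown, although both VKH dogs had less of each than the vitiligo dog.

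Set against the panel as a whole, no member was among the genes that edgeR called with the 4 housekeeping genes as scaling. In VKH 0 of 4 members passed the edgeR test, while 43.6% of the 156 genes did (49 higher and 19 lower), and 1 member, RXRG, had an unadjusted p under 0.05. In the vitiligo dog 0 of 4 passed, against 24.4% of all genes. Over the 3 cases 0 of 4 passed, against 50.6%, and between VKH and vitiligo 0 of 4, against 0.641%. In these last 3 comparisons no member had an unadjusted edgeR p under 0.05 either. DESeq2 called 1 member, RXRG, in VKH, against 48.7% of all genes, and 0 in the other comparisons. With limma 0 were called in all 4, against 41.7% of all genes in VKH. Over the 3 cases DESeq2 called 51.9% of all genes and limma 48.7%.

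In direction the 4 members leaned to lower levels. All 4 log2 fold changes were negative in VKH, with a median of −0.72 against −0.01 for all genes, and their ranks from the lowest of 156 were 30 for RXRG, 50 for EDA, 55 for VDR and 58 for EDAR. In the vitiligo dog 3 of 4 were negative, with a median of −0.23 against 0.29 for all genes. Over the 3 cases 4 of 4 were negative, and the medians were −0.63 for the members and 0.07 for all genes. Of all 156 genes, 78 were negative in VKH, 68 in the vitiligo dog and 73 over the 3 cases. EDA and RXRG were the members with both VKH dogs below all 5 healthy dogs, which held for 18.6% of the 156 genes (29 genes). These comparisons share the same 5 healthy dogs and are not independent of each other.

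How low the members stood depended on the genes used for scaling. B2M, a component of MHC class I, had 92886 to 167909 raw counts in the 3 cases against 18028 to 72537 in the healthy dogs, and relative to the other 3 housekeeping genes it was 4.99-fold higher in cases, with no overlap (exact permutation p = 0.0357, two-sided). RPL13A, a ribosomal protein gene, and HPRT, a purine salvage enzyme gene, were set against the geometric mean of CCZ1, HPRT and RPL13A. RPL13A stood at 0.871-fold (exact permutation p = 0.179, two-sided) and HPRT at 1.15-fold (exact permutation p = 0.107, two-sided). That mean holds the compared gene itself, which draws its fold towards no change. With B2M left out of the scaling, the VKH log2 fold changes moved to −0.16 for EDA, 0.019 for EDAR, −0.06 for VDR and −0.59 for RXRG, while the panel median moved to 0.57.

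EDA then no longer separated the dogs, at 75.5 and 120.3 in VKH and 118 in vitiligo against 147, 98.8, 96.8, 104.6 and 97.6 in healthy skin. RXRG without B2M was 150.2 and 140.1 in VKH and 317 in vitiligo, against 315, 116, 174, 306 and 186 in healthy skin, so that healthy replicate 2 fell below both VKH dogs.

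A scaling shifts all genes of a dog alike, so the distance of a member from the panel median is nearly fixed by construction, and the 11 scalings show it once rather than 11 times. Over them the VKH log2 fold change minus the panel median was −1.25 to −1.02 for RXRG, −0.81 to −0.70 for EDA, −0.68 to −0.43 for VDR and −0.59 to −0.42 for EDAR. The fold change itself ran from −2.05 to −0.40 for RXRG and from −1.67 to −0.05 for EDA, whereas that of EDAR, from −1.36 to 0.059, and that of VDR, from −1.42 to 0.16, changed sign. Scaling by the library total, under which the panel median was −0.87 and 37.8% of all genes were called lower, called RXRG, EDA and EDAR lower in VKH. RXRG passed in 6 of the 11 scalings, EDA in 3, EDAR in 1 and VDR in 0.

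**Figure D3:**
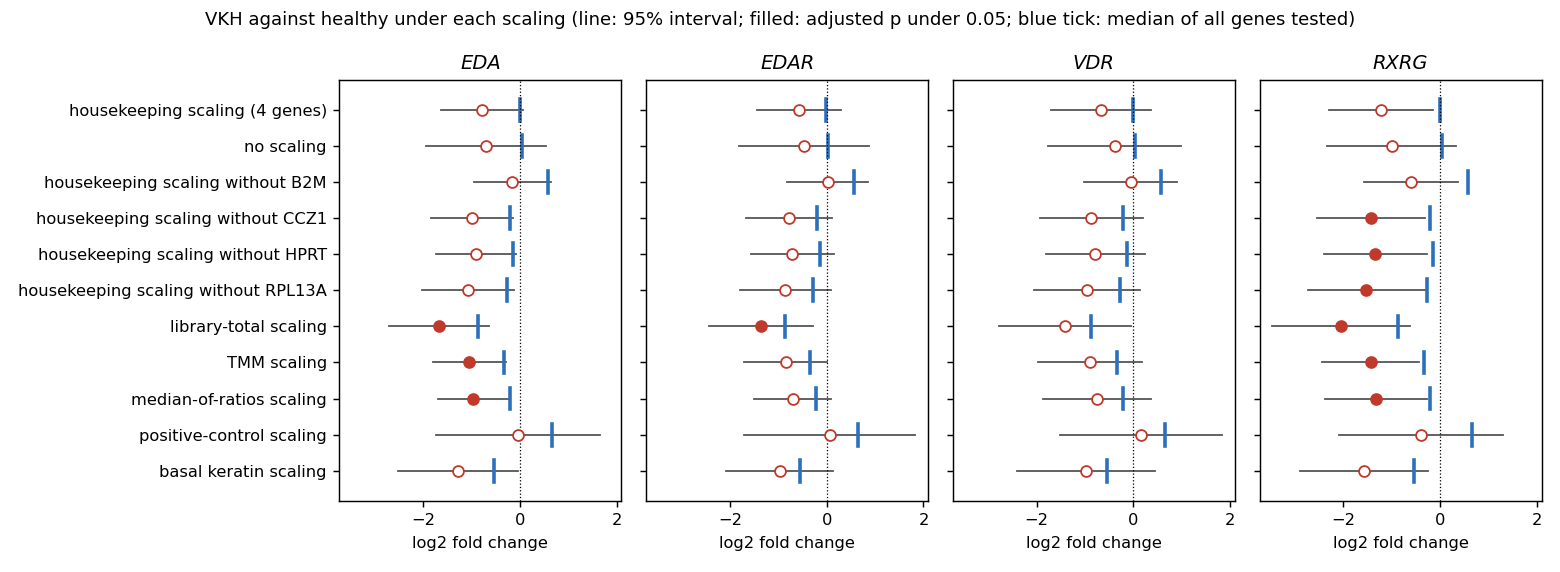
Log2 fold change, VKH over healthy, of each member under each of 11 scalings, as a point with its 95% interval, filled where the adjusted p is under 0.05, and a tick for the median of all 156 genes under the same scaling. The panel median runs from −0.87 with the library total to 0.65 with the positive controls, and the members shift with it, as scaling makes all genes do.

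Ratios between members within a dog do not depend on scaling, and 6 were compared. EDAR over EDA, receptor over ligand on the log2 scale of counts, was −1.25 and −2.09 in the VKH dogs, −1.16 in the dog with vitiligo and −2.28, −2.25, −1.56, −1.60 and −1.75 in the healthy dogs. Cases and healthy dogs overlapped, with a difference of 0.39 (exact permutation p = 0.25, two-sided, 0.75 after adjustment over the 6). For RXRG over VDR, the receptor partners, the values were −2.70 and −2.12 in VKH, −1.43 in vitiligo and −1.32, −2.10, −1.82, −2.09 and −2.35 in healthy skin. Here the difference was −0.15 (exact permutation p = 0.714, two-sided), and the vitiligo dog stood near the top of the healthy range.

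RXRG over EDAR came closest to a separation. It was 2.23 and 2.30 in the VKH dogs and 2.56 in the vitiligo dog, against 3.37, 2.48, 2.41, 3.14 and 2.67 in the healthy dogs. Both VKH dogs lay below all healthy dogs and the vitiligo dog did not. Over the 3 cases the difference was −0.45 (exact permutation p = 0.107, two-sided, adjusted p = 0.643), and this ratio carries the low counts of EDAR. The adjusted exact permutation p of the 6 ratios ran from 0.643 to 0.857.

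**Figure D4:**
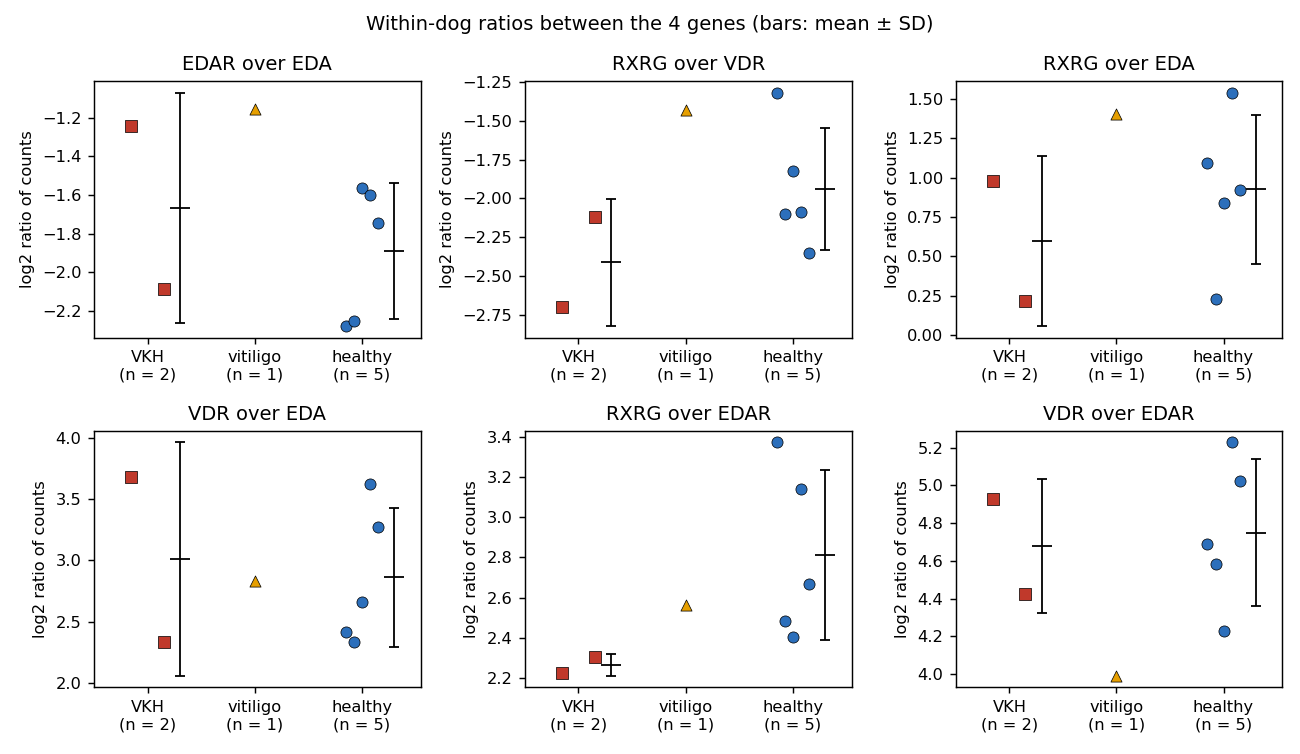
Log2 ratios of raw counts between pairs of members in each dog, 1 panel a pair, with VKH, vitiligo and healthy dogs from left to right and bars for the mean ± SD. RXRG over EDAR is lowest in the 2 VKH dogs, at 2.23 and 2.30 against at least 2.41 in healthy dogs, and in the other pairs VKH and healthy dogs overlap.

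The RNA of several cell type markers differed between the groups as well. KRT5 and KRT14, keratins of the basal epidermal layer that also line the outer follicle, together had 57043 to 75212 scaled counts in VKH and 61527 in vitiligo against 33579 to 99450 in healthy skin, with 0 of 2 called by edgeR and 0 at an unadjusted p under 0.05. Of 5 measured genes of differentiating keratinocytes, 3 were higher in VKH (KRT1, KRT10 and FLG), and their sum was 242100 to 476637 in VKH and 194788 in vitiligo against 45531 to 134547 in healthy skin. T cell genes rose in 3 of 3, with a sum of 1491 to 1963 in VKH and 1388 in vitiligo against 148 to 240 in healthy dogs. PECAM1, a marker of vessel lining, fell in VKH, with a log2 fold change of −1.54. Of 3 measured mast cell genes, CPA3 was lower in VKH, at −1.42 (edgeR adjusted p = 0.0127), and MS4A2 and HDC did not pass. B cell genes rose in 2 of 2 in VKH. Of 2 measured macrophage genes, CD84 rose in VKH and CD163, at −1.30, did not pass. Melanocyte genes, 4 measured of 9 listed, had 0 edgeR calls, with an unadjusted p under 0.05 for 1 in VKH and 0 in vitiligo. Of 8 listed keratins of the follicle and of hyperproliferation 0 were analysed here, so no follicle keratin stood beside the members, and the part of cell makeup in their levels was not tested.

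Set against the basal keratins, the panel as a whole stood lower in the cases, with a median log2 fold change over all genes of −0.55 in VKH and −0.41 over the 3 cases, and the values of the members are to be read against that shift. Per 10000 counts of the geometric mean of KRT5 and KRT14, VDR had 293 and 133 in the VKH dogs and 227 in the vitiligo dog, against 456, 378, 313, 361 and 586 in the healthy dogs. RXRG had 44.8 and 30.2 in VKH and 84.0 in vitiligo, against 182, 87.2, 88.3, 84.9 and 114 in healthy skin. For both genes all 3 cases were below all healthy dogs, with log2 differences of −0.98 for VDR and −1.13 for RXRG. The exact permutation p was 0.0357 each, two-sided and unadjusted, the smallest that 3 dogs against 5 can give. Neither passed over the 3 cases by edgeR with basal keratin scaling (adjusted p = 0.131 for VDR and 0.0968 for RXRG). The gap for RXRG was narrow, 84.0 against 84.9.

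EDA, at 22.6 and 25.9 in VKH and 31.4 in vitiligo, overlapped with the lowest healthy dog, which had 29.0 per 10000. EDAR overlapped too, and the exact permutation p was 0.0714, two-sided, for each. Relative to basal keratins, all 3 cases lay below all healthy dogs, as for VDR and RXRG, in 16.9% of 154 genes. The 154 are the panel genes other than KRT5 and KRT14, with the 4 members included. Both VKH dogs lay below all healthy dogs for all 4 members (for EDAR by 9.35 against 9.36 at the closest) and for 26.6% of the 154. With this scaling the edgeR adjusted p in VKH was 0.0608 for RXRG, 0.0878 for EDA, 0.150 for EDAR and 0.257 for VDR.

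**Figure D5:**
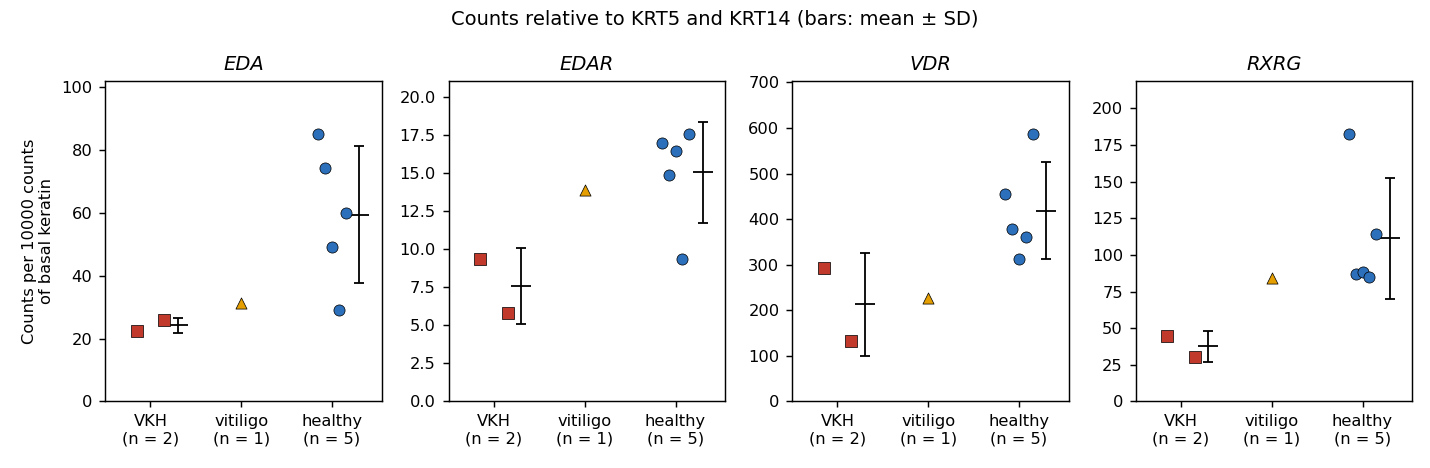
Members per 10000 counts of KRT5 and KRT14 (their geometric mean) in each dog, on linear axes from 0, with VKH, vitiligo and healthy dogs from left to right and bars for the mean ± SD. All 3 cases lie below all 5 healthy dogs for VDR and RXRG, and both VKH dogs do so for EDA and EDAR.

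Sex differed between the groups, since all 3 cases were male. Among the healthy dogs EDA had 103 and 119 scaled counts in the males against 107 to 187 in the females, and RXRG 121 and 348 in the males against 192 to 400.2 in the females. VDR, at 523 and 1483 in the males, spanned the 680 to 1131 of the females. No member separated the sexes, with exact permutation p of 0.6 to 1, two-sided, where 2 against 3 dogs cannot go below 0.2. EDA on the X chromosome is thus not shown to differ by sex. On raw counts, which are not scaled between dogs, it separated the sexes, at 80 and 99 in males against 113 to 188 in females. The 188 came from healthy replicate 3, where the housekeeping mean was 8479 against 3223 to 4692 in the other healthy dogs. Scaled, it was 107. The share of all genes that separated the sexes on raw counts is not given here.

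The other panel genes of these pathways were few. From a list of 19 genes of ectodysplasin and NF-kB signalling and related ligands, chosen with earlier results of these data known, 1 was measured. This was TNF, the founding cytokine of the ligand family, which is not a step between ectodysplasin and NF-kB. None of the listed genes between them was measured. TNF rose in VKH with a log2 fold change of 1.71 ± 0.32 (edgeR adjusted p = 0.00229) and stood at 0.96 in vitiligo without passing. Of 22 hair follicle and WNT genes, 5 were measured, and in VKH the test called 1 higher and 0 lower, with 4 short of the threshold and a list median of 0.20 against −0.01 for all genes. The gene that rose was SFRP2, a secreted WNT modulator, at 4.77 ± 0.61 (edgeR adjusted p = 0.000271), and it rose in the vitiligo dog too, at 2.57 (edgeR adjusted p = 0.0244). Over the 3 cases TGFB3, a growth factor of the follicle cycle, joined it at 0.93 (edgeR adjusted p = 0.0214), while WIF1, a WNT inhibitor, was at −1.20 and did not pass (edgeR adjusted p = 0.142).

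Of 28 nuclear receptors and enzymes of their ligands, 6 were measured, namely PPARG, PPARA, AHR, CYP1B1, CYP1A1 and HSD11B1. By edgeR 0 of the 6 passed in VKH and 0 in vitiligo, with an unadjusted p under 0.05 for 2 and 1 of them, and the list medians were −0.18 and 0.15, against −0.01 and 0.29 for all genes. Over the 3 cases 1 was lower, CYP1B1, an oxidising enzyme of retinoids and steroids, at −1.32 ± 0.39 (edgeR adjusted p = 0.0178). PPARG, a receptor of fat and sebaceous cells that pairs with retinoid X receptors, had −1.70 in VKH and did not pass (edgeR adjusted p = 0.082). Retinoid X receptors alpha and beta and the vitamin D enzymes CYP24A1 and CYP27B1 were not analysed here.

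Other panel genes differed in how near their profile over the 8 dogs lay to that of each member. Likeness was taken as the root mean square difference of log2 scaled counts after centring each gene, over 108 candidate genes above background in at least 5 dogs. EDA was nearest to TSLP, an epithelial cytokine, at 0.30, then to FOXO3, a stress-response transcription factor, at 0.32 and the RNA-editing enzyme ADAR2 at 0.35, where the median candidate stood at 0.82. EDAR was nearest to PRLR, the prolactin receptor, at 0.22, then to MS4A2, a mast cell receptor subunit, at 0.30 and the DNA methyltransferase DNMT1 at 0.33, with a median candidate at 0.84. DNMT1 varied little, at 494 to 665 scaled counts over the dogs, and a gene that varies little can be near without following the member.

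VDR was nearest to SCCE, a protease of the outermost epidermis also called kallikrein 7, at 0.39, then to the melanocortin receptor MC5R at 0.40 and DNMT1 at 0.45, with a median of 0.92. RXRG was nearest to PRLR at 0.46, PPARA at 0.47 and MS4A2 at 0.48, with a median of 0.99, and closer still to EDAR, at 0.38, and to VDR and EDA, at 0.43 and 0.45. EDA was less close to the other members, which came after several other genes, with EDAR at rank 12, RXRG at rank 15 and VDR at rank 22 among its candidates. The best rank of another member was 5 for EDAR (VDR and RXRG) and 2 for VDR (EDAR). The 8 points share the scaling factor of each dog, and the likeness is a description only. PRLR was lower in both VKH dogs than in every other dog, but by only 255.0 against 255.8 at the closest. It stood at 255 and 237 in VKH and 471 in vitiligo against 256 to 426 in healthy skin. Both VKH dogs lay below all 5 healthy dogs in 18.6% of the 156 genes.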

How the data were processed

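The authors deposited raw NanoString counts of 160 canine genes, 6 positive and 8 negative controls, read on a Sprint instrument with no alignment to a genome. Per the study's methods nSolver was used. The counts were whole numbers and carried no normalization. CCZ1 was taken to be the housekeeping probe left once the other 3 were named.

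The geometric mean of the 4 housekeeping genes served as each dog's library size in edgeR 4.0.16 (R 4.3.3, quasi-likelihood test, legacy fit) over all 8 dogs, with no filter on low counts, and in a second fit of the 3 cases against healthy dogs. Housekeeping genes were not tested in these fits. Exact permutation tests over dogs were two-sided. Log2 levels for likeness used a pseudocount of 1. The genes named are the 4 members, the 3 genes most like each, called genes of the pathway lists and any gene a result turns on. WIF1, PPARG, AHR, CYP1A1, HSD11B1 and the marker genes were named outside that rule, with their values seen.

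The members and lists were chosen with earlier results of these data known. Alternatives were 10 other scalings, a filter (at least 20 counts in at least 2 dogs, removing 10 genes and no member), a floor of 20 counts, subtraction of the negative controls, the newer edgeR default, DESeq2 1.42.0, limma 3.58.1, the methods' t-test, separate fits for the groups compared, a fit with male healthy dogs alone, the dog number as a block and each dog left out. The procedure was tested on simulated data. The numbers of the dogs are names only, and p-values measure the spread between dogs.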

Additional observations from a re-analysis of the deposited data

Results flagged for a closer look

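EDA in healthy replicate 1, at 187 scaled counts, lay far from the other 4 healthy dogs, at 103 to 119. Its gap to the nearest of them was 0.809 of the whole healthy range, above Dixon's critical value of 0.71 for 5 samples. EDAR in healthy replicate 2, at 20.6 scaled counts and below background, lay far under the other 4, at 33.9 to 38.4, with a gap of 0.744 of the range. On raw counts the largest gaps were 0.583 for EDA and 0.638 for EDAR, under the critical value. In all 14 groups of values were tested, and chance alone marks about 1 in 20.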

How the results depend on the processing

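Over 28 settings RXRG in VKH kept its sign in all, with 8 calls, and EDA kept it with 3 calls, the adjusted p running from 0.0249 to 0.804 for RXRG and from 0.0174 to 0.958 for EDA. The number of members called in VKH, 0 of 4, was 1 (RXRG) without CCZ1, HPRT or RPL13A in the scaling (edgeR adjusted p = 0.0415, 0.0436 and 0.0424) and with DESeq2 (adjusted p = 0.0395), 3 with the library total, 2 (EDA and RXRG) with median-of-ratios and with TMM scaling, and 0 to 1 with a dog left out. Of all 156 genes in VKH, edgeR called 45.5%, 46.8% and 44.2% without CCZ1, HPRT and RPL13A in turn, and 43.6% without healthy replicate 2. DESeq2 called 48.7%, and scaling by the library total, median of ratios and TMM gave 52.6%, 48.7% and 46.8%. In the 3 cases 0 members were called, against 1 (EDA) with median-of-ratios scaling (edgeR adjusted p = 0.0215), with TMM and with the library total (edgeR adjusted p = 0.0183 each). Those scalings called 56.4%, 54.5% and 52.6% of all genes in the 3 cases. Members with all cases on 1 side of the healthy dogs numbered 1, against 0 with no scaling, without B2M and with positive controls, 2 with basal keratins, and 1 to 2 with a dog left out (2 without the vitiligo dog). All cases lay below all healthy dogs in 10.9% of the 156 genes with the 4 housekeeping genes as scaling. The share was 16.9% of 154 genes relative to basal keratins, and 18.6% of 156 without the vitiligo dog. For the other settings it is not given here. Members apart by sex numbered 0, against 1 (EDA) with no scaling, and the share of all genes apart by sex is not given here.

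Signs turned as follows. In VKH EDAR was at 0.019 without B2M and 0.059 with positive controls, and VDR at 0.16 with positive controls. In vitiligo, without B2M, EDA was at 0.12, VDR at 0.038 and RXRG at 0.53. There EDAR was at −0.17 with the library total, −0.076 with median of ratios, −0.11 with TMM, −0.15 with positive controls and −0.11 with basal keratins, and RXRG at 0.089 with limma and 0.090 with male healthy dogs, and between −0.21 and 0.18 with a dog left out. In the 3 cases EDAR was at 0.35 without B2M. Between VKH and vitiligo, positive controls gave EDA 0.72, EDAR 0.21 and VDR 0.98, and VDR was at 0.34 with no scaling, 0.016 with TMM, 0.14 with median of ratios, and between −0.57 and 0.17 with a dog left out. With male healthy dogs RXRG over VDR was at 0.010 and VDR over EDA at −0.027. With a dog left out, RXRG over VDR ran from −0.48 to 0.16, RXRG over EDA from −0.33 to 0.27 and VDR over EDA from −0.28 to 0.40. The causes were not tested.

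The replicate block called 0 members in every comparison and 42 genes in VKH. The VKH values under the block were −0.95 for EDA, −0.35 for EDAR, −0.30 for VDR and −1.02 for RXRG, and VDR between VKH and vitiligo turned to 0.22. Deviations of dogs with the same number correlated at −0.0765 and −0.126, so the numbers do not pair them. Genes called over all settings ran from 24 to 82 in VKH, 9 to 52 in vitiligo, 25 to 88 in the 3 cases and 0 to 5 between the diseases. The methods' t-test called 0 members and 24 genes in VKH. The 2 VKH dogs and 1 vitiligo dog limit what could be detected, and EDAR was below background in 3 dogs.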
